A study of Caenorhabditis elegans with 12 samples.

Results

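The nuclear hormone receptor genes of Caenorhabditis elegans were taken as all genes whose symbol begins with nhr- in the probe-to-gene table of the array. The table named 252 such genes through 267 probes, among 16378 genes with a probe. Of the 252, 170 were measured on 3 or 4 arrays of each mutant and entered the test, among 12887 genes in all. A smaller share of the nhr genes than of all genes reached that minimum, 67.5% against 78.7%. Of the 170, 107 lie on chromosome V, which is 62.9% of them against 24.1% of all genes tested, and 18 lie on X, 10.6% against 13.2%. Of the 170, 10 were read by more than 1 probe, whose values were averaged on each array, and the others by a single probe.

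Nuclear hormone receptors are transcription factors that bind DNA through a zinc finger domain, and many of them are switched by a small lipophilic ligand held in a separate domain. The nematode genome carries a far larger family than mammals do, and most of its members descend from an ancestor related to HNF4, the mammalian regulator of liver metabolism. The members with known roles act mainly in somatic tissues, in fat and vitamin metabolism, stress responses, moulting and neuronal identity, while a few act in the gonad or the early embryo. MES-2 is the nematode Enhancer of zeste, which places the repressive histone mark H3K27 methylation, and MES-4 is a methyltransferase for H3K36 on germline-expressed genes.

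RNA came from germ lines dissected from adults grown at 20 °C, and each of 12 arrays set amplified RNA of a mutant in 1 dye against wild-type RNA in the other. There were 4 independently harvested arrays for each of 3 mutants. The mes-2 mutants were strain SS0186 and were compared with unc-4(e120) worms, the mes-4 mutants were strain SS0803 and were compared with N2, and the mes-2; mes-4 double mutants were strain SS0965 and were compared with unc-4(e120). The labels name no mes allele and each mutant was a single strain, so strain and genotype cannot be told apart. Wild-type and single-mutant adults had at most a few fertilised embryos, whereas double-mutant germ lines were chosen for good proliferation and the presence of oocytes. In every comparison with the double mutant, this choice and the genotype cannot be told apart. Mutant RNA carried Cy5 on mes-2 arrays 1 and 3, mes-4 arrays 3 and 4 and double-mutant arrays 2 and 4, and Cy3 on the others.

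Every value is the deposited log ratio, read here as log2 of mutant over wild type. The sources used here state neither the base nor the direction; the direction was taken from the order of the channels and titles. The probe for mes-2 was low in both mutants named for it, at −2.09, −3.72, −2.58 and −2.81 on the 4 mes-2 arrays and −2.49 on average in the double mutant. The mes-4 probe did not fall, averaging 0.63 in mes-4 mutants (SE 0.238, limma adjusted p = 0.227) and −0.03 in the double mutant, so it gives no check of those labels. Ratios carry no level, so neither the tissue label nor which receptors are expressed could be read from them, and in dissected tissue fewer cells of a type and less RNA per cell cannot be told apart. Members of this family resemble each other in sequence, and cross-hybridisation between them was not tested.

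Some arrays stood apart, and the dye left a mark on these genes. Of all genes' variance left after the fit, 47.0% lay on 1 axis that set mes-4 array 3 and double-mutant arrays 1 and 4 against double-mutant arrays 2 and 3. An array gave values for 17297 to 21879 of its 22490 probes, and double-mutant array 3, the poorest, had a value for 146 of the 170 nhr genes. The term for dye passed the test for 66 of 170 nhr genes, 38.8%, against 32% of all genes. Of all genes, limma called 3.94%, 2.52% and 9.62% higher in mes-2, mes-4 and double mutants (adjusted p under 0.05). It called 1.3%, 1.39% and 6.25% lower. Among marker genes, 2, 1 and 3 of 6 measured neuronal genes rose in mes-2, mes-4 and double mutants, with array medians of the list from 0.02 to 0.57, 0.22 to 0.35 and 0.28 to 0.53. In mes-2 mutants unc-31 was at 2.90 and ric-19 at 1.95. Of 11 germ cell genes, 1 rose and 5 fell in the double mutant, mes-2 itself, rec-8 (−1.27) and htp-3 (−0.98) among those that fell. In mes-2 mutants 1 of the germ cell genes rose and 1 fell, mes-2 itself, and in mes-4 mutants 1 fell. In the double mutant 2 of 8 muscle genes and 1 of 9 oocyte genes fell. Of 7 sperm genes, 2 rose in mes-2, 2 fell in mes-4, and 1 rose and 2 fell in double mutants. Of 8 early embryo genes limma called 0 in each mutant. In mes-4 mutants 1 of 9 gonadal sheath and spermatheca genes rose, nmy-1 (0.42), and 1 of 7 hypodermal genes fell, rol-6 (−0.75). Neither list had a call in mes-2 or double mutants. The intestinal list had array medians from −1.62 to −0.17 in mes-4 mutants with 0 of 11 genes called by limma, from −0.58 to 0.50 in mes-2 mutants with 1 higher, and from 0.02 to 0.37 in the double mutant, also with 0 of 11. The part of these marker genes in the results that follow was not tested.

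As a family the nhr genes stayed near the centre of each comparison, with a few members far above it. A gene was called when the limma adjusted p, over all 12887 genes, was under 0.05. In mes-2 mutants 9 of 170 rose and 0 fell, which is 5.29%, against 5.25% of all genes (3.94% higher and 1.3% lower). In mes-4 mutants 1 rose and 0 fell, 0.588% against 3.91% (2.52% higher and 1.39% lower). In the double mutant 14 rose and 5 fell, 11.2% against 15.9% (9.62% higher and 6.25% lower). At an unadjusted p under 0.05 the counts were 35, 29 and 37, or 20.6%, 17.1% and 21.8%, against 16.5%, 14.4% and 28.1% of all genes. By adjusted calls the mes-2 share was near its background and the other 2 shares were below theirs, while by unadjusted p the mes-2 and mes-4 shares were above theirs and the double-mutant share below. These differences in share were not tested. The median log2 ratio of the 170 was 0.03, 0.04 and 0.02 in the mes-2, mes-4 and double mutants, against 0.00, 0.00 and 0.01 for all genes. Of the 170, 71 averaged within 0.25 of 0 in all 3 mutants, 41.8% against 43.7% of all genes.

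**Figure D1:**
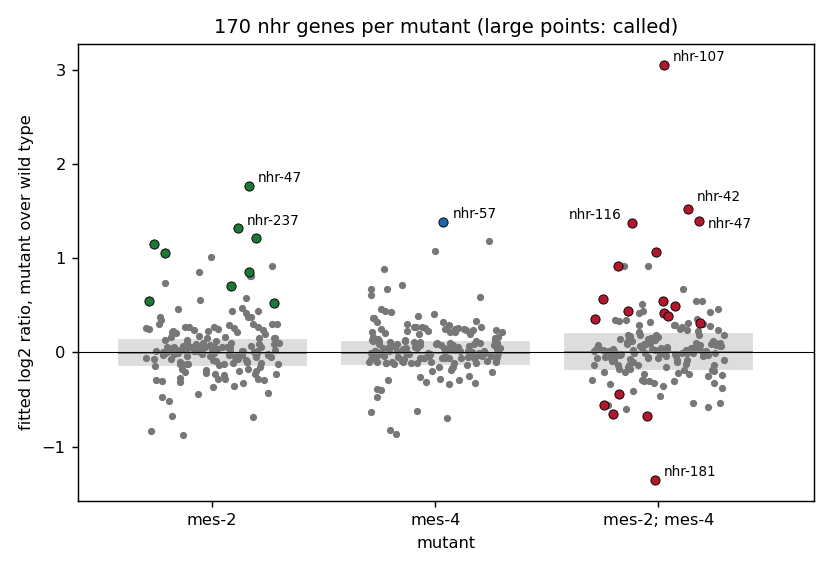
Fitted log2 ratio of mutant over wild type (vertical axis) of each of the 170 tested nhr genes in the 3 mutants (horizontal axis, with sideways scatter for legibility); small grey points were not called, large coloured points were, and the grey band runs from the lower to the upper quartile of all genes tested. Most points lie close to 0, and nhr-107 in the double mutant, at 3.06, lies far from the rest.

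These counts, and every SE given here, rest on the common fit over 12 arrays. An SE thus comes from a spread estimated over all arrays, not from the 4 arrays of its group. Double-mutant arrays lay further out on the residual axis than mes-2 arrays, with scores of 0.497, −0.342, −0.5 and 0.345 against −0.129 to 0.128. Whether the common spread is too small for the double mutant was not tested. Fitted on the 4 arrays of its own group alone, the double mutant kept 1 call, nhr-107, and mes-4 mutants gave 5. The mes-2 count was 5 without mes-2 array 2, 3 or 4. The double-mutant count was 10 without its array 4, and the mes-4 count was 0 without any 1 of the mes-4 arrays or mes-2 array 1 or 3, 3 without double-mutant array 2, and 5 without double-mutant array 1 or 3. Of the called genes, 4 of 9 in mes-2 and 8 of 19 in the double mutant stayed called whichever of the 12 arrays was left out.

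The 2 highest means in the double mutant belonged to a pair of neighbours on chromosome V, nhr-107 and nhr-42, and that of nhr-107 was the highest of the 170 in any of the 3 mutants. The ratio of nhr-107 was 2.83, 2.84, 4.08 and 2.47 on the 4 double-mutant arrays. It was 0.86, 0.21, 0.47 and 0.68 in mes-2 mutants and −0.09, 0.17, 0.86 and 0.68 in mes-4 mutants. Every double-mutant array lay above every single-mutant array by more than the whole spread of the single mutants. The mean of 3.06 over 4 arrays (SE 0.24, from the common fit) is an 8.31-fold rise, with a limma adjusted p of 1.28e-05. In tests of the difference itself, the double-mutant ratio exceeded that of mes-2 mutants by 2.50 (SE 0.34, adjusted p = 0.00174). It exceeded that of mes-4 mutants, whose wild type was N2 and not unc-4(e120), by 2.65 (SE 0.34, adjusted p = 0.0038). These are the 3 nhr results that stayed called in all 23 alternative settings, in which the double-mutant mean ranged from 2.64 to 3.46.

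Its neighbour nhr-42 was at 1.15, 1.35, 2.06 and 1.55 on the double-mutant arrays, a mean of 1.53 (SE 0.183, limma adjusted p = 0.000239) or 2.88-fold. It was at 0.41, −0.57, 0.29 and −0.61 in mes-2 mutants and at 0.15, 0.21, 1.01 and 0.36 in mes-4 mutants. The double-mutant arrays again lay above all 8 single-mutant arrays, whose values straddled 0. The difference from mes-2 mutants was 1.65 (SE 0.259, adjusted p = 0.00413), and the difference from mes-4 mutants was 1.1 (SE 0.259, adjusted p = 0.0656), which did not pass. Next to nhr-107 on its other side lie nhr-162 and then nhr-140, which each had a value on mes-4 array 4 alone, 0.31 and 0.33, and were not tested. Lying next to another nhr gene went with no larger share of calls against wild type: in the double mutant 6 of 74 such genes were called, 8.11%, and 12 of 88 others whose neighbours are known, 13.6%. Of the 8 genes called between double and mes-2 mutants, 5 lie next to another nhr gene, as do 74 of the 170 tested.

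**Figure D2:**
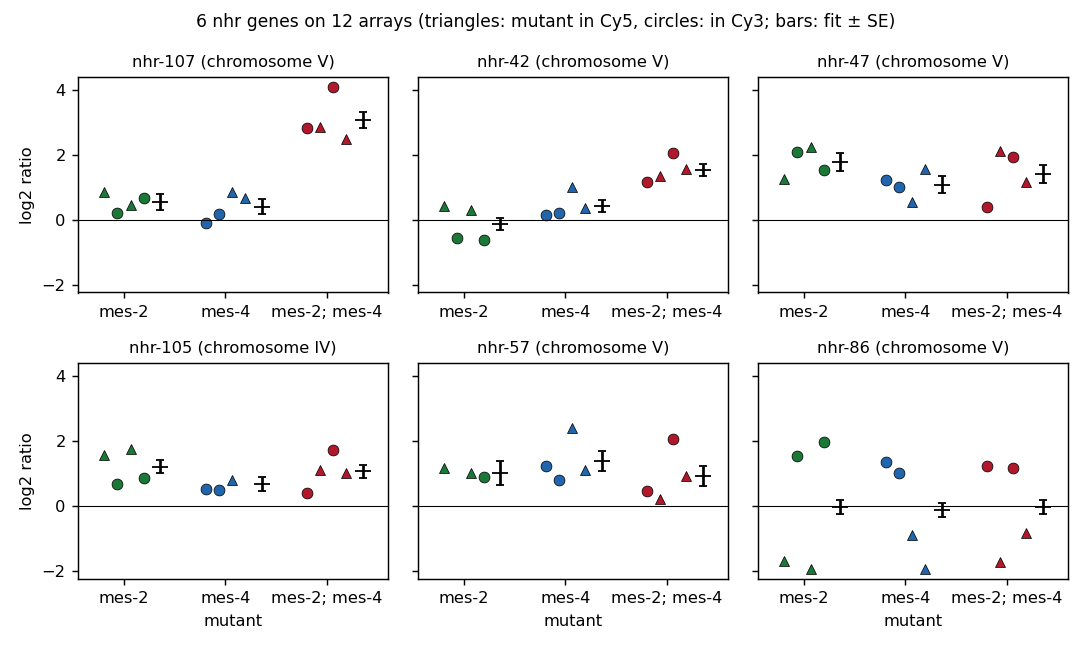
Log2 ratio of mutant over wild type (vertical axis) on every array of the 3 mutants (horizontal axis) for nhr-107, nhr-42, nhr-47, nhr-105, nhr-57 and nhr-86; triangles have the mutant RNA in Cy5 and circles in Cy3, and black bars are the fitted mean ± SE. The 4 double-mutant points of nhr-107 lie between 2.47 and 4.08 with no single-mutant point above 0.86, and nhr-86 splits by dye, with every triangle below 0 and every circle above it.

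The genes nhr-47, nhr-105, nhr-20 and nhr-100 rose in mes-2 mutants and in the double mutant. Both comparisons used unc-4(e120) as wild type, and whether arrays shared RNA is not stated. The ratio of nhr-47 was 1.24, 2.08, 2.23 and 1.53 on mes-2 arrays, 1.22, 1.00, 0.56 and 1.55 on mes-4 arrays, and 0.40, 2.12, 1.93 and 1.15 on double-mutant arrays. All 12 values were above 0 and the 3 groups overlapped. Its means were 1.77 (SE 0.272, limma adjusted p = 0.0033) in mes-2, 1.40 (adjusted p = 0.00496) in the double and 1.08 in mes-4 mutants, where it missed the threshold (adjusted p = 0.0544). Without double-mutant arrays 2 and 3 together, its double-mutant mean was 0.78 and no longer called (adjusted p = 0.0968).

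The ratio of nhr-105 was 1.58, 0.69, 1.74 and 0.85 in mes-2 mutants, and 0.40, 1.11, 1.72 and 1.03 in the double. It had values of 0.53, 0.51 and 0.79 on 3 mes-4 arrays. The double-mutant values overlapped those of both single mutants, with means of 1.22 in mes-2 (SE 0.195, limma adjusted p = 0.00564), 1.07 in the double (adjusted p = 0.00458) and 0.68 in mes-4 (adjusted p = 0.168). The rise of nhr-20 was smaller and tighter, at 0.84, 0.66, 0.94 and 0.38 in mes-2 mutants and 0.04, 0.63, 0.52 and 0.47 in the double. Its mean was 0.71 in mes-2 (SE 0.098, adjusted p = 0.00186) and 0.42 in the double (adjusted p = 0.0148), where the call was lost without array 2 (adjusted p = 0.0556) or array 3 (adjusted p = 0.0679). nhr-100 was at 1.14, 0.72, 1.39 and 0.99 in mes-2 mutants, a mean of 1.06 (SE 0.185, adjusted p = 0.00874), which missed the threshold without array 2 (adjusted p = 0.0517) or 4 (adjusted p = 0.0542). Its 3 double-mutant values were far apart, at 0.00 in Cy3 and 1.98 and 1.15 in Cy5, with a dye term of 0.77 (adjusted p = 0.0286) and a mean of 0.92 (adjusted p = 0.0179) that fell to 0.58 without array 2 (adjusted p = 0.0706) and was not called without array 4 (adjusted p = 0.0546). With no dye term it was not called in mes-2 (adjusted p = 0.056) or double mutants (adjusted p = 0.0512).

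Like nhr-47, nhr-116 was above 0 on all 12 arrays. It was at 0.55, 1.33, 2.50 and 1.12 in the double, a mean of 1.38 (SE 0.302, limma adjusted p = 0.0101). Its values in mes-4 mutants, 1.00, 0.63, 1.95 and 1.13, overlapped these, with a mean of 1.18 (adjusted p = 0.0585). Without double-mutant arrays 2 and 3 its double-mutant mean was 0.84 (adjusted p = 0.115).

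The only gene called in mes-4 mutants was nhr-57, known as a target of the hypoxia factor HIF-1. Its ratio was 1.24, 0.81, 2.39 and 1.1 on mes-4 arrays, a mean of 1.39 (SE 0.307, limma adjusted p = 0.0359). It was 1.16, 1.03 and 0.88 on 3 mes-2 arrays and 0.47, 0.21, 2.06 and 0.92 in the double, so the groups overlapped. Neither of those means was called (adjusted p = 0.176 and 0.0749). In mes-4 mutants the call was lost without any of the 4 mes-4 arrays, with adjusted p from 0.0725 to 0.142, and the mean was 1.01 without array 3. It was also lost without mes-2 array 1, 3 or 4 or double-mutant array 4, with adjusted p from 0.0562 to 0.0586.

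5 further genes rose in mes-2 mutants and were not called in the double: nhr-237, nhr-168, nhr-15, nhr-11 and nhr-69. nhr-237 was at 1.90, 0.75, 1.71 and 0.91, a mean of 1.32 (SE 0.265, limma adjusted p = 0.0188), while its mes-4 values ran from −0.54 to 0.60 and did not overlap them. The call was lost without mes-2 array 1 (adjusted p = 0.105), 3 (0.0899) or 4 (0.0536). Between mes-4 and mes-2 mutants, whose wild types differ, limma did not call nhr-237. nhr-168 was at 0.36, 1.23, 1.24 and 1.78, a mean of 1.15 (SE 0.234, adjusted p = 0.0196), and its call was lost without array 2, 3 or 4, with adjusted p from 0.088 to 0.0991. For none of these 5 did the difference between double and mes-2 mutants pass the test, so they are not shown to differ between these mutants.

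For nhr-15 and nhr-11 the dye moved with the rise. nhr-15 was at 1.57 and 1.25 on the mes-2 arrays with mutant RNA in Cy5 and at −0.01 and 0.59 on those in Cy3, with a mean of 0.85 (SE 0.142, limma adjusted p = 0.00704). nhr-11 was at 0.70 and 1.46 in Cy5 and at 0.08 and −0.06 in Cy3, with a mean of 0.55 (adjusted p = 0.0472) that was lost without mes-2 array 2, 3 or 4, any mes-4 array, or double-mutant array 1 or 3, with adjusted p from 0.0512 to 0.208. nhr-69, which acts with the SMAD protein DAF-8 in insulin-like peptide release, had values of 0.63, 0.50, 0.75 and 0.24, all above 0. Its mean of 0.53 (SE 0.136) lay just inside the threshold (adjusted p = 0.0497) and was lost without any mes-2 or mes-4 array, or double-mutant array 2 or 4, with adjusted p from 0.0536 to 0.205.

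**Figure D3:**
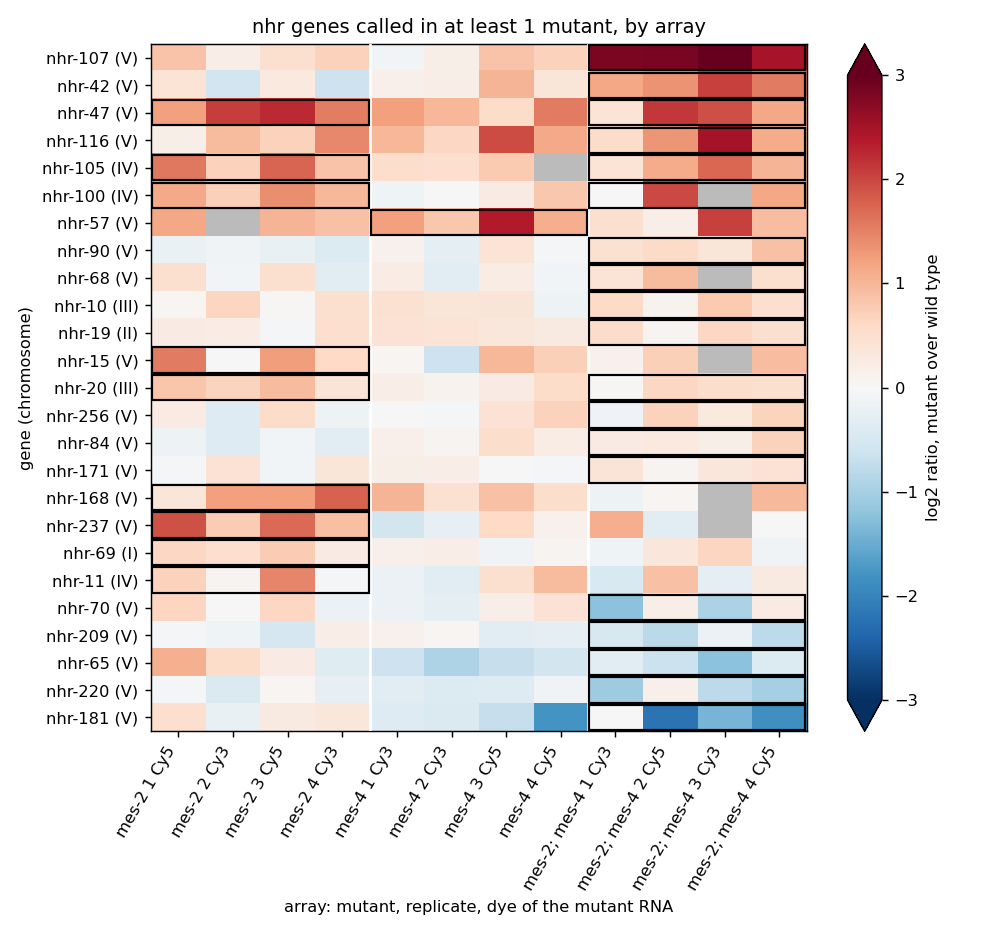
Log2 ratio of mutant over wild type by colour (scale held at −3 to 3) for the 25 nhr genes called in at least 1 mutant (rows) on each of the 12 arrays (columns). Black frames mark the mutant in which a gene was called and grey cells have no value; nhr-107, at up to 4.08, runs past the colour scale.

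The other double-mutant rises were under 1.5-fold. nhr-90 was at 0.46, 0.57, 0.37 and 0.88, above all 4 mes-2 values, which ran from −0.40 to −0.10. Its mean was 0.57 (SE 0.11, limma adjusted p = 0.00483), and it exceeded mes-2 mutants by 0.80 (SE 0.156, adjusted p = 0.0128). nhr-84 was at 0.24, 0.30, 0.18 and 0.69 in the double and from −0.39 to −0.08 in mes-2 mutants, again without overlap, a difference of 0.59 (SE 0.12, adjusted p = 0.0168) that was lost without mes-2 array 1 or 2 or double-mutant array 4, with adjusted p from 0.0509 to 0.053. Its own mean of 0.35 (adjusted p = 0.0164) was not called without array 1 (adjusted p = 0.05) or array 4 (adjusted p = 0.106). nhr-19 and nhr-171 averaged 0.44 and 0.31, and both were also lost without array 4 (adjusted p = 0.0542 and 0.178). For nhr-171 the call was lost as well without double-mutant array 1 (adjusted p = 0.056) or mes-4 array 1 or 2 (adjusted p = 0.05 each). nhr-256 averaged 0.39 (adjusted p = 0.017), with 0.69 and 0.66 in Cy5 and −0.11 and 0.30 in Cy3, a dye term of 0.61 (adjusted p = 0.00264). It was lost with no dye term (adjusted p = 0.254) and without array 2, 3 or 4, with adjusted p from 0.0505 to 0.0759.

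5 genes fell in the double mutant, all on chromosome V, which is 4.67% of the nhr genes there against 4.47% of all genes there. The steadiest was nhr-209, at −0.48, −0.81, −0.17 and −0.78, a mean of −0.56 (SE 0.0968, limma adjusted p = 0.00246) that stayed called whichever array was left out. nhr-181 was at 0.02, −2.21, −1.40 and −1.83, so 3 arrays were low and 1 was not, with a mean of −1.36 (SE 0.287, adjusted p = 0.00818). It lay 1.58 below mes-2 mutants on the log2 scale, a difference of −1.58 (SE 0.405, adjusted p = 0.0454) that was lost without mes-2 array 1, 3 or 4, mes-4 array 1, 2 or 3, or double-mutant array 2, 3 or 4, with adjusted p from 0.0508 to 0.137. nhr-65 was at −0.35, −0.65, −1.22 and −0.41, a mean of −0.66 (adjusted p = 0.0343), and its mes-4 values of −0.63, −0.93, −0.68 and −0.56 were equally low but not called (adjusted p = 0.0657). Without double-mutant array 3 its mean was −0.51 (adjusted p = 0.143), and without array 2 or 4 the call was lost too (adjusted p = 0.109 and 0.0946), as it was without mes-4 array 2 or 4 (adjusted p = 0.0512 and 0.0515).

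The remaining pair each had arrays on the other side of 0. nhr-220 was at −1.07, 0.16, −0.78 and −1.0, a mean of −0.67 (limma adjusted p = 0.013) that was lost without array 1 (adjusted p = 0.0624) or 4 (adjusted p = 0.081). nhr-70 was low with mutant RNA in Cy3, −1.24 and −0.96, and not in Cy5, 0.18 and 0.25, with a mean of −0.44 (adjusted p = 0.0266) lost without array 1 (adjusted p = 0.123) or 3 (adjusted p = 0.0876). Of the genes called, nhr-15 and nhr-11 in mes-2 mutants and nhr-181, nhr-220, nhr-70, nhr-256 and nhr-100 in the double were not on 1 side of 0 on every array, and were named after their values were seen.

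Tests of 1 mutant against another called few genes. Those with mes-4 mutants also set N2 against unc-4(e120) as wild type, and that difference cannot be told apart from the one between mutants. In those with the double mutant, the choice of its germ lines cannot be told apart from genotype either. Double against mes-2 mutants called 8 of 170, 4 in each direction, which is 4.71% against 6.19% of all genes. All 8 lie on chromosome V, where they are 7.48% of the nhr genes against 4.31% of all genes, and 0 of 63 nhr genes elsewhere were called by limma, against 6.8% of all genes elsewhere. Double against mes-4 mutants called nhr-107 alone, 0.588% against 1.78%. Between mes-4 and mes-2 mutants limma called 0 nhr genes, against 1.96% of all genes, and 22 had an unadjusted p under 0.05, 12.9% against 12.3%. Besides those already given, nhr-65 differed between double and mes-2 mutants by −1.03 (adjusted p = 0.0433) and nhr-70 by −0.72 (adjusted p = 0.0299). The nhr-65 difference stayed called without mes-2 array 4 or double-mutant array 1 and was lost without any other array, with adjusted p from 0.0545 to 0.122. The nhr-70 difference was lost without any mes-2 array or double-mutant array 1 or 3, with adjusted p from 0.0559 to 0.0894. nhr-145 differed by −0.47 (adjusted p = 0.0423), lost without any array but double-mutant array 1, with adjusted p from 0.051 to 0.125. It was named after its value was seen, as was the difference of nhr-84, and its 3 probes disagreed: 1 of them stood at 1.19, 1.26, 0.74 and 1.19 on mes-2 arrays and the others between −0.49 and 0.21.

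2 of the risers belong to a known metabolic circuit. NHR-10 and NHR-68 switch on the propionate shunt, a pathway that breaks down propionate when vitamin B12 is scarce, and NHR-114 governs the methionine cycle on the same vitamin. In the double mutant nhr-10 was at 0.59, 0.10, 0.79 and 0.51, a mean of 0.50 over its 2 probes (SE 0.104, limma adjusted p = 0.00796), lost without array 4 (adjusted p = 0.0565). The probes differed, at 0.79, 0.24, 0.93 and 0.87 for 1 and at 0.39, −0.05, 0.65 and 0.15 for the other. Its dye term was −0.39 (limma adjusted p = 0.0307), and the call was lost with no dye term. nhr-68 had values of 0.40, 0.95 and 0.47 on 3 arrays, a mean of 0.54 (SE 0.156, adjusted p = 0.0412), lost without mes-2 array 1, 2 or 3, mes-4 array 2 or 3, or double-mutant array 1, 2 or 4, with adjusted p from 0.0509 to 0.182. Neither gene was called in a single mutant.

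Of 8 measured genes of the shunt and the methionine cycle, 2 rose in the double mutant and 0 fell, where 9.62% of all genes rose and 6.25% fell. ech-6, an enoyl-CoA hydratase of the shunt, was at 0.81, 1.08, 0.52 and 1.36, a mean of 0.94 (SE 0.0862, limma adjusted p = 3.73e-05). hphd-1, a later dehydrogenase of the shunt, was at 0.22, 0.75, 0.28 and 0.98, a mean of 0.56 (SE 0.0865, adjusted p = 0.00128). Both were above 0 on every double-mutant array. The next enzyme, alh-8, averaged −0.13, and the methionine synthase gene metr-1 averaged −0.46 (adjusted p = 0.0503), so the 8 did not move as a block, and their median was 0.04 against 0.01 for all genes. nhr-114 itself ran from −2.42 to 1.79 on the double-mutant arrays. In mes-4 mutants it was at −1.68 and −1.20 in Cy3 and at −0.37 and −0.22 in Cy5, a mean of −0.87 (adjusted p = 0.334). In the double mutant nhr-114 also averaged lower in Cy3 (−1.76) than in Cy5 (0.835). In mes-2 mutants its means were close, at 0.255 in Cy3 and 0.295 in Cy5. The dye term of nhr-114 was 1.26 and just missed the threshold (limma adjusted p = 0.0522).

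Of 8 measured fat metabolism genes that depend on NHR-49, 1 was called higher in mes-2 and in double mutants. Of all genes, 3.94% and 9.62% were called higher there. acs-2, the acyl-CoA synthetase that responds to fasting, was at 1.64, 2.64, 2.34 and 1.33 in mes-2 mutants and 1.16, 1.59, 1.78 and 2.07 in the double. Its means of 1.99 (SE 0.234, limma adjusted p = 0.000628) and 1.65 (adjusted p = 0.000736) stand beside 0.40 in mes-4 mutants (adjusted p = 0.536). The other 7 of 8 measured genes of that list, fat-6 and fat-7 among them, were not called in any mutant. nhr-49 was not analysed here. Its partner nhr-13 was near 0 in every mutant, and nhr-62, needed for the long life of diet-restricted worms, was at 1.02, 0.70, 1.09 and 0.44 in mes-2 mutants, a mean of 0.81 that missed the threshold (adjusted p = 0.0544).

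The receptors named next, which have relatives in vertebrates or insects, showed no called change. nhr-6, the NR4A receptor needed in the spermatheca, averaged 0.00, −0.09 and 0.01 in mes-2, mes-4 and double mutants. nhr-25, the NR5A receptor of epidermis and moulting, averaged 0.06, 0.07 and 0.01, and nhr-67, the Tailless receptor of the anchor cell, averaged 0.12, 0.01 and −0.10. nhr-91, related to germ cell nuclear factor, averaged −0.04, −0.01 and 0.03. All lay within 0.25 of 0 in each mutant. nhr-2, a receptor of the early embryo, averaged 0.26 in mes-4 mutants (limma adjusted p = 0.287). Of 26 receptors fixed for their known roles, 17 had a probe and 16 were tested.

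nhr-86, a receptor of metabolites and pathogen cues, split by dye more than by mutant. It was at −1.69 and −1.92 on the mes-2 arrays with mutant RNA in Cy5 and at 1.53 and 1.96 on those in Cy3. Its 8 other values split the same way, between −1.93 and −0.81 in Cy5 and between 1.03 and 1.34 in Cy3. The dye term was −2.87 (limma adjusted p = 0.00016), and the group means with dye balanced were −0.03, −0.11 and −0.02.

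None of the X-linked nhr genes was called, in a series where many X-linked genes were. limma called 0 of 18 in each mutant, against 4.00%, 11.6% and 22.9% of all 1702 X-linked genes tested in mes-2, mes-4 and double mutants. At an unadjusted p under 0.05 there were 1, 4 and 2 of 18; in mes-4 mutants that is 22.2% against 26.6%, and in the double 11.1% against 33.5%. The difference in share was not tested. Their means ran from −0.28 to 0.18 in mes-2, −0.40 to 0.32 in mes-4 and −0.23 to 0.30 in double mutants, and their medians were 0.04, −0.03 and 0.03 against 0.02, 0.06 and 0.10 for all X-linked genes. The member nearest to a call, named after its value was seen, was nhr-45, which drives a detoxification response to mitochondrial stress. It was at 0.31, 0.06, 0.58 and 0.23 in the double (mean 0.30, adjusted p = 0.0536) and at 0.45, 0.37, 0.28 and 0.18 in mes-4 mutants (mean 0.32, adjusted p = 0.0926).

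The X-linked members followed the dye with nearly 1 sign. On each of the 6 arrays with mutant RNA in Cy5 their median lay below that of the autosomal nhr genes, with differences from −0.23 to −0.14 on the log2 scale, and on each of the 6 in Cy3 it lay above, by 0.01 to 0.20. X-linked genes in general also moved with dye. The median of all X-linked genes minus that of all autosomal genes was −0.085 to 0.10 in Cy5 and 0.12 to 0.31 in Cy3. The dye term was below 0 for 16 of 18, 88.9%, against 55.4% of all X-linked genes. It was called for 7 of 18, 38.9%, which is close to the 38.8% of all nhr genes and stands against 31.4% of all X-linked genes. The nhr genes on V were called at 13.1% in the double (14 of 107), against 11.4% of all genes on V, at 3.74% against 4.69% in mes-2 and at 0.935% against 2.28% in mes-4 mutants.

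**Figure D4:**
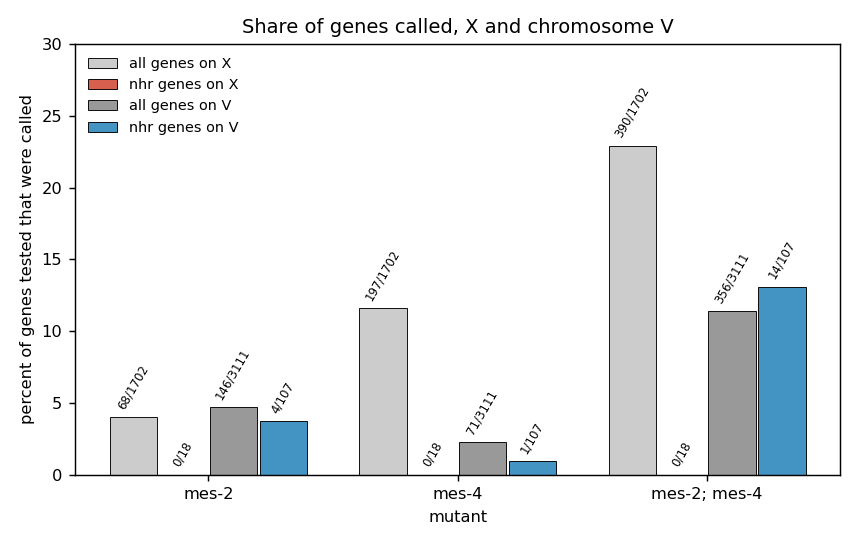
Percent of tested genes called in either direction (vertical axis) in each of the 3 mutants (horizontal axis), for all genes and nhr genes on X and on chromosome V, with the number called over the number tested above each bar. In the double mutant 390 of 1702 X-linked genes and 0 of 18 X-linked nhr genes were called, beside 356 of 3111 genes and 14 of 107 nhr genes on V.

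Other genes of nuclear receptor signalling were read from lists of coregulators, ligand synthesis and targets. Of 4 measured coregulators, 2 rose in the double mutant, where 9.62% of all genes rose, and the median of the 4 was 0.53 against 0.01 for all genes. They were let-19, a Mediator kinase module subunit, which rose by 0.81 (SE 0.228, limma adjusted p = 0.0343), and dpy-22, another subunit of that module encoded on X, which rose by 0.64 (SE 0.187, adjusted p = 0.04). On double-mutant array 1 let-19 was at 0.07 and dpy-22 at 0.01, below their other arrays. let-19 averaged as much in the single mutants without a call, 0.83 in mes-2 (adjusted p = 0.0656) and 0.86 in mes-4 (adjusted p = 0.0674). dpy-22 averaged 0.09 in mes-2 (adjusted p = 0.89) and 0.64 in mes-4 (adjusted p = 0.0972). Of 5 measured genes of the dafachronic acid pathway, which makes the ligand of DAF-12, emb-8 fell by 0.31 in the double (adjusted p = 0.0197) and the others were not called. Of 3 measured nuclear receptors without an nhr- name, fax-1, odr-7 and unc-55, none was called, and fax-1 averaged 0.46 in the double (adjusted p = 0.0606). Of 7 moulting genes, noah-2 rose by 0.55 in mes-2 mutants (adjusted p = 0.0454) and mlt-10 fell by 0.32 in the double (adjusted p = 0.0113). Of all genes, 3.94% rose in mes-2 mutants and 6.25% fell in the double.

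The 82 nhr genes that were not tested include 56 on chromosome V and 2 on X. Of these, 79 had a value on at least 1 array, on a median of 5 of 12, and their values ran from −2.99 to 4.25. They fell short of the minimum in mes-2 mutants for 66 genes, in mes-4 mutants for 48 and in the double for 53. A missing value was not read as a low level, since the spot filter is not given in the sources used here.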

How the data were processed

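Two-colour arrays were read for 12 dissected germ line samples, 4 per mutant. Values are the authors' log ratios, 1 for each probe of an array, read here as log2; its base, normalization, spot filter and direction are not given in the sources used here. Of 22490 probes, 17461 name 1 gene, 0 several and 5029 none, per the platform's probe-to-gene table; 16310 gene IDs matched the RefSeq gene table and 88 did not. Probes of a gene were averaged per array. limma 3.58.1 in R 4.3.3 fitted 12887 genes with a value on 3 or more of 4 arrays in every group, over all 12 arrays, with a coefficient per mutant and a term for dye, and Benjamini-Hochberg adjustment over all genes (two-sided; threshold 0.05). Missing values were dropped gene by gene. The fit was tested on simulated data with independent noise on every gene and array. Those data lack the shared residual axis of the real arrays, so they cannot show how often calls are false here. Named were the genes of known role and, per comparison, the called genes on 1 side of 0 on every array; exceptions are marked. The members and lists were chosen with earlier results of these data known. Each mutant had 4 arrays, and what limits the precision was not tested. Sequences are not shown here.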

Additional observations from a re-analysis of the deposited data

Results flagged for a closer look

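Among the 39 nhr genes named or of known role, 109 groups of 4 arrays were examined for an array far from the other 3, and 4 were found; chance marks about 5 in 100 such groups. nhr-1 was at 0.11 on mes-2 array 2 and between 0.03 and 0.04 on the others. nhr-10 was at −0.15 on mes-4 array 4 and between 0.36 and 0.46 on the others. nhr-13 was at −0.45 on double-mutant array 3 and between 0.10 and 0.19 on the others. nhr-91 was at −0.12 on mes-2 array 3 and between −0.02 and 0.00 on the others. Effects that differed between mutants in a test of the difference were those of the double mutant minus mes-2 for nhr-107 (2.50), nhr-42 (1.65), nhr-90 (0.80), nhr-84 (0.585), nhr-145 (−0.468), nhr-181 (−1.58), nhr-65 (−1.03) and nhr-70 (−0.72), and of the double mutant minus mes-4 for nhr-107 (2.65).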

How the results depend on the processing

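Of 38 calls for a named nhr gene, 3 held in all 23 alternative settings, all of nhr-107, and 0 reversed. Of 46 gene and comparison pairs without a call, 11 gained one in some setting. With no dye term the counts were 5 in mes-2, 10 in the double and 3 for double minus mes-2. Among the 122 genes with values on all 12 arrays they were 4 in mes-2 and 4 in mes-4, with fewer genes tested. Scaling the arrays to 1 spread gave 10 in mes-4 and 2 for mes-4 minus mes-2. Values on 2 of 4 arrays gave 2 for double minus mes-4 and 1 for mes-4 minus mes-2. Without mes-4 array 3 and double-mutant arrays 1 and 4 there were 6 in mes-4 and 3 for mes-4 minus mes-2. Without double-mutant arrays 2 and 3 there were 14 in mes-2, 9 in mes-4, 4 for double minus mes-4 and 2 for mes-4 minus mes-2. Fits on the compared groups alone gave 5 in mes-4, 1 in the double, 3 for double minus mes-2 and 2 for mes-4 minus mes-2. Testing against a 1.5-fold change left 0 in mes-2, 0 in mes-4, 2 in the double and 1 for double minus mes-2. The causes were not tested, beyond the fewer genes or arrays in some settings.

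Leaving out 1 array at a time gave 5 to 11 calls in mes-2, 0 to 5 in mes-4, 10 to 20 in the double, 3 to 9 for double minus mes-2, 1 to 1 for double minus mes-4 and 0 to 2 for mes-4 minus mes-2. The same settings were applied to the X-linked members after the data were seen. In mes-4 they gave 1 call with arrays scaled (nhr-45), 1 without mes-4 array 3 and double-mutant arrays 1 and 4 (nhr-255, lower) and 1 without double-mutant arrays 2 and 3 (nhr-45). In the double they gave 1 with values on all 12 arrays (nhr-45), and with 1 array left out 0 in mes-2, 0 in mes-4 and 0 to 1 in the double. Of 12 pairs of same-numbered arrays, 4 had residuals correlated over 0.1, with r from −0.47 to 0.54. Because 1 axis held much of the residual variance, these correlations cannot decide whether array numbers pair the samples. With array number as a replicate block there were 10 calls in mes-2, 3 in mes-4, 15 in the double and 4 for double minus mes-2.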
